A study of Mus musculus with 6 samples.

Results

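Complement is a cascade of plasma proteins that tags and destroys microbes and clears dying cells. The classical pathway starts when C1q binds a target and switches on the proteases C1r and C1s, which cut C4 and C2 to build an enzyme that splits C3; the alternative pathway reaches the same step through factor B. The fragments released on the way act on 2 receptors described here, C3ar1 and C5ar1, on myeloid cells, and regulators on cells and in plasma hold the cascade in check. The liver supplies most complement protein in blood, while macrophages, fibroblasts and other stromal cells also make parts of the set, and C1q comes mainly from macrophages and related cells.

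The genes described were 9 complement genes chosen by name, C1s1, C2, C3, C4b, Cfb, C1qa, C1qb, C3ar1 and C5ar1, looked up among array rows that list exactly 1 gene symbol. A row was found for 8 of the 9, with 1 such row per gene, out of 19938 genes tested. C3 was not analysed here. The comparison asked how these transcripts differ between bone marrow cells that make stem cell factor, which keeps blood stem cells alive, and the marrow as a whole.

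The mice of both groups were young adults of C57BL/6 background, and each group had 3 Affymetrix whole-transcript arrays. The Scf-GFP+ group was 5000 double-sorted bone marrow cells per array from mice heterozygous for a knock-in that places green fluorescent protein in the stem cell factor gene. The whole bone marrow group was 5000 sorted cells per array from wild-type mice, so genotype, sorting and cell population changed together and cannot be told apart. The labels speak of independent aliquots without naming separate animals, and the p-values then reflect only the scatter among these arrays, part of which may be technical.

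All values are deposited log2 values, in which 1 unit is a 2-fold step, and a difference is the Scf-GFP+ mean minus the whole bone marrow mean. They carry no detection call, so a low value does not show that a transcript was absent, and the number of arrays limits the precision. The array medians over all rows lay between 6.56 and 6.63. Of the marker lists used here, all 10 stromal niche markers, Kitl among them, were called higher, against 9.01% of all genes. All 6 pan-blood markers were called lower, against 7.89%. Kitl, the stem cell factor gene that carried the fluorescent protein, differed by 5.57, which is no independent check of the sort. Scf-GFP+ replicate 1 stood apart from its group in blood genes, with a mean over 10 neutrophil markers of 10.14, against 5.77 and 5.96 in replicates 2 and 3 and 12.10 to 12.17 in whole marrow. Ptprc, the leukocyte marker CD45, measured 8.65 on that array and 5.68 and 6.03 on the other two. Scf-GFP+ replicates 1 and 2 were also high in Xist, the RNA that silences an X chromosome in females, at 11.50 and 11.81, while the other 4 arrays lay between 4.99 and 5.10. High Xist thus occurred only in the Scf-GFP+ group, so sex was partly confounded with group. By these values replicate 3 was not from the same pool of animals as replicates 1 and 2. Whether other arrays shared animals is not known.

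C1s1, C4b and C2 of the classical pathway and Cfb of the alternative pathway were higher in Scf-GFP+ cells, C1qa and C1qb were not called in either direction, and the receptor genes C5ar1 and C3ar1 were lower. A gene was called where limma's adjusted p, over all genes tested, lay below 0.05 and the difference was at least 2-fold. Of the 8 genes, 4 were called higher (C1s1, C4b, Cfb and C2), against 9.01% of all genes, and 2 were called lower (C5ar1 and C3ar1), against 7.89%. Called genes in either direction made up 16.9% of all genes tested. The median difference over the 8 genes was 1.35, and that over all genes was -0.08. All Scf-GFP+ arrays lay above all whole marrow arrays for 4 of the 8 genes, where 19.0% of all genes did so, and below them for 3, where 26.4% did so. In bulk samples, fewer cells of a type and less RNA per cell cannot be told apart, and this holds for each difference that follows.

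**Figure D1:**
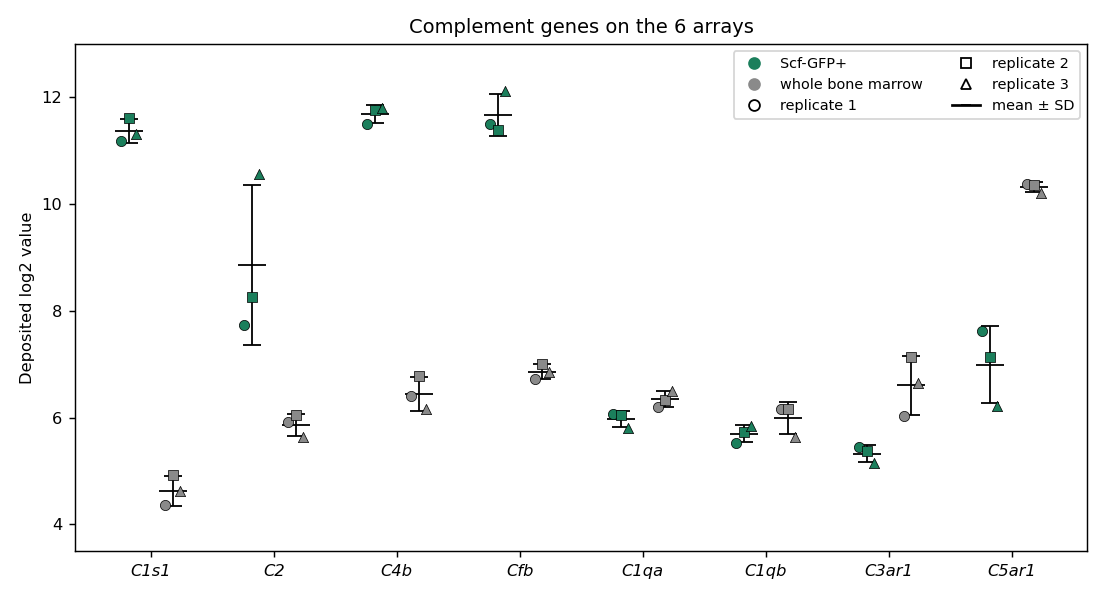
Deposited log2 values (vertical axis) of the 8 complement genes on each array, with symbols for the replicates and bars for the mean ± SD of 3 arrays. C1s1, C4b and Cfb sit above 11 in Scf-GFP+ cells and between 4.36 and 7.0 in whole marrow, C2 is spread over 2.82 units within Scf-GFP+ cells, and the C1q chains lie close together in both groups.

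C1s1 encodes C1s, the protease of the C1 complex that cuts C4 and C2, and it had the largest difference of the 8 genes. It measured 11.18, 11.61 and 11.31 on the Scf-GFP+ arrays and 4.36, 4.92 and 4.61 on the whole marrow arrays. The groups were separated by 6.26 units, while the arrays of a group spanned 0.43 and 0.56. The difference was 6.73 ± 0.18 (SE, 3 arrays a group; limma adjusted p = 2.76e-06), which is 106-fold. The whole marrow values were under the lower quartile of all rows, which was 5.19 to 5.31, so the fold is approximate.

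The genes next to C1s1 in the mouse genome belong to the same complex. C1ra, which encodes C1r, the protease that activates C1s, is the adjacent gene in the RefSeq order. It measured 7.71, 8.48 and 8.34 in Scf-GFP+ cells and 6.14, 6.32 and 6.45 in whole marrow, a called difference of 1.87 ± 0.22 (limma adjusted p = 0.00104). C1s2, a near-identical copy of C1s1 that lies on the other side of C1rb, measured 5.58, 4.52 and 5.05 against 3.81, 4.27 and 3.70. Its difference of 1.12 ± 0.29 was called (limma adjusted p = 0.0286), but the call was lost with a replicate block (adjusted p = 0.0640) and when Scf-GFP+ replicate 1 or 3 was left out (0.0576 and 0.0700) or whole marrow replicate 1 or 3 (0.0905 and 0.0960). It was also lost with a term for the Xist split (adjusted p = 0.164) and in a test against a 2-fold change. Over all alternatives its adjusted p ran from 0.0115 to 1. All C1s2 values but that of Scf-GFP+ replicate 1 lay under the lower quartile of all rows, so the size of its difference is approximate. Because these copies share sequence, which of them a row measured is uncertain.

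C4b encodes complement component C4, the first substrate of C1s, whose larger fragment attaches to the target surface. It measured 11.50, 11.76 and 11.80 in Scf-GFP+ cells and 6.40, 6.77 and 6.15 in whole marrow. Every Scf-GFP+ array lay at least 4.73 units above every whole marrow array. The difference was 5.25 ± 0.18 (38.0-fold, limma adjusted p = 5.86e-06). C4a, which RefSeq lists for this strain as a transcribed pseudogene with only Cyp21a1 between it and C4b, measured 7.22, 7.31 and 7.52 against 5.91, 6.04 and 6.02. It too was called, at 1.36 ± 0.12 (limma adjusted p = 0.000273), but C4a and C4b are close copies and hybridisation of C4b transcripts to C4a probes was not tested.

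Cfb encodes factor B, the protease subunit of the alternative pathway's convertase. It measured 11.51, 11.39 and 12.11 in Scf-GFP+ cells and 6.73, 7.0 and 6.85 in whole marrow. The groups did not overlap, and the highest value was that of Scf-GFP+ replicate 3. The difference was 4.81 ± 0.21 (28.1-fold, limma adjusted p = 1.31e-05).

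C2, the classical pathway's counterpart of factor B, is the gene next to Cfb and was the least even of the 4 higher genes. It measured 7.74, 8.27 and 10.56 in Scf-GFP+ cells and 5.91, 6.04 and 5.64 in whole marrow. Scf-GFP+ replicate 3 lay 2.29 units above the next array of its group, so that the group spanned 2.82 units, against 0.40 in whole marrow. The difference was 2.99 ± 0.69 (7.94-fold, limma adjusted p = 0.0190), with a 95% interval from 1.35 to 4.63. Without Scf-GFP+ replicate 3 it was 2.14 (limma adjusted p = 0.00127), or 4.40-fold. Leaving out whole marrow replicate 1, 2 or 3 ended the call (limma adjusted p = 0.0582, 0.0510 and 0.0672), although the difference stayed between 2.88 and 3.08. A term for the Xist split, which leaves Scf-GFP+ replicate 3 alone against whole marrow, raised the difference to 4.69, or 25.9-fold (limma adjusted p = 0.000277). Over all alternatives the adjusted p of C2 ran from 0.000277 to 0.135. In each of these fits the difference was above 0, and all 3 Scf-GFP+ arrays lay above all whole marrow arrays.

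C1qa and C1qb encode chains A and B of C1q, the recognition subunit, a bundle of collagen-like stalks with globular heads. C1qa measured 6.06, 6.05 and 5.80 in Scf-GFP+ cells and 6.19, 6.33 and 6.50 in whole marrow. The groups did not overlap, but the gap of 0.13 was smaller than the span within either group. The difference was -0.37 ± 0.13 (limma adjusted p = 0.0876, 95% interval -0.69 to -0.05), and the gene was not called. C1qb measured 5.53, 5.72 and 5.84 against 6.16, 6.16 and 5.64, and the groups overlapped. Its difference of -0.29 ± 0.18 was not called (limma adjusted p = 0.284, 95% interval -0.71 to 0.13). C1qc, the gene between them, which encodes chain C, measured 6.11, 6.01 and 5.90 against 6.39, 6.21 and 6.70, at -0.42 ± 0.15 (limma adjusted p = 0.0879, not called). Each value of C1qa and C1qb lay below its array's median over all rows. The 95% intervals of all 3 chains lay within 2-fold in either direction. They describe the deposited values, and how far background narrows differences at these low levels was not tested.

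Macrophage markers did not move as 1 block beside the C1q chains. Of 13 macrophage markers, 3 were called lower (Adgre1, a surface receptor of mouse macrophages, at -2.47, Csf1r, the receptor for macrophage colony-stimulating factor, at -2.09, and Cd68 at -2.79), 2 were called higher (Mertk at 3.04 and the iron exporter Slc40a1 at 1.45) and 8 were not called. Their median difference was -0.28. Over all genes, 7.89% were called lower and 9.01% higher. Of the 13 markers, 7 lay lower on every Scf-GFP+ array than on any whole marrow array, against 26.4% of all genes. Another 3 lay higher on every Scf-GFP+ array, against 19.0%. The log2 of the summed level of all 13 ran from 10.30 to 10.73 in Scf-GFP+ cells and from 11.07 to 11.32 in whole marrow. Whether the markers called in either direction were made by macrophages or by other cells was not tested. The part of macrophages in the C1q values was not tested.

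C5ar1 and C3ar1 encode the receptors for the fragments C5a and C3a, which draw in and activate myeloid cells. C5ar1 measured 7.63, 7.13 and 6.21 in Scf-GFP+ cells and 10.38, 10.36 and 10.21 in whole marrow. Whole marrow arrays spanned only 0.17 units and lay at least 2.59 units above every Scf-GFP+ array, which spanned 1.41. The difference was -3.33 ± 0.34 (10.0-fold lower, limma adjusted p = 0.000538). C5ar2, a second C5a receptor and the adjacent gene, measured 6.29, 6.62 and 6.12 against 6.61, 6.57 and 6.54, a difference of -0.23 ± 0.15 that was not called (limma adjusted p = 0.308). C3ar1 measured 5.45, 5.37 and 5.14 in Scf-GFP+ cells and 6.03, 7.14 and 6.65 in whole marrow. The groups did not overlap, and here the wider spread lay in whole marrow, at 1.11 units against 0.31. The difference was -1.28 ± 0.27 (2.43-fold lower, limma adjusted p = 0.0143). The call on C3ar1 was lost without whole marrow replicate 3 (adjusted p = 0.0523), with a term for the Xist split (0.0657) and in a test against a 2-fold change (1), while over all alternatives the adjusted p ran from 0.00353 to 1.

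Neutrophil and monocyte markers were lower in Scf-GFP+ cells, as the 2 receptors were. Of 10 neutrophil markers 8 were called lower, with a median difference of -4.87, and of 7 monocyte markers 5 were called lower, with a median of -2.92. All 10 and all 7 lay lower on every Scf-GFP+ array than on any whole marrow array. Over all genes, 7.89% were called lower and 26.4% lay lower on every array. The log2 of the summed neutrophil level was 14.24, 9.53 and 9.74 on Scf-GFP+ replicates 1 to 3 and 15.62 to 15.67 in whole marrow. That of the monocyte list ran from 9.34 to 9.70 in Scf-GFP+ cells and from 12.08 to 12.21 in whole marrow. C5ar1 was highest of its group on Scf-GFP+ replicate 1, the array with the highest neutrophil markers of the 3, and lay 0.49 units lower on replicate 2. It did not follow those markers further, falling from 7.13 on replicate 2 to 6.21 on replicate 3, where the neutrophil level was no lower. Without replicate 1 the difference of C5ar1 was -3.64 (limma adjusted p = 0.000450, from 0.000212 to 0.00382 over all alternatives). Without replicate 3 it was -2.94, or 7.66-fold lower (limma adjusted p = 0.000212). With a term for the Xist split it was -4.10, which moved the fold from 10.0 to 17.2 (limma adjusted p = 0.000251). The part of each blood cell type in the receptor values was not tested.

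**Figure D2:**
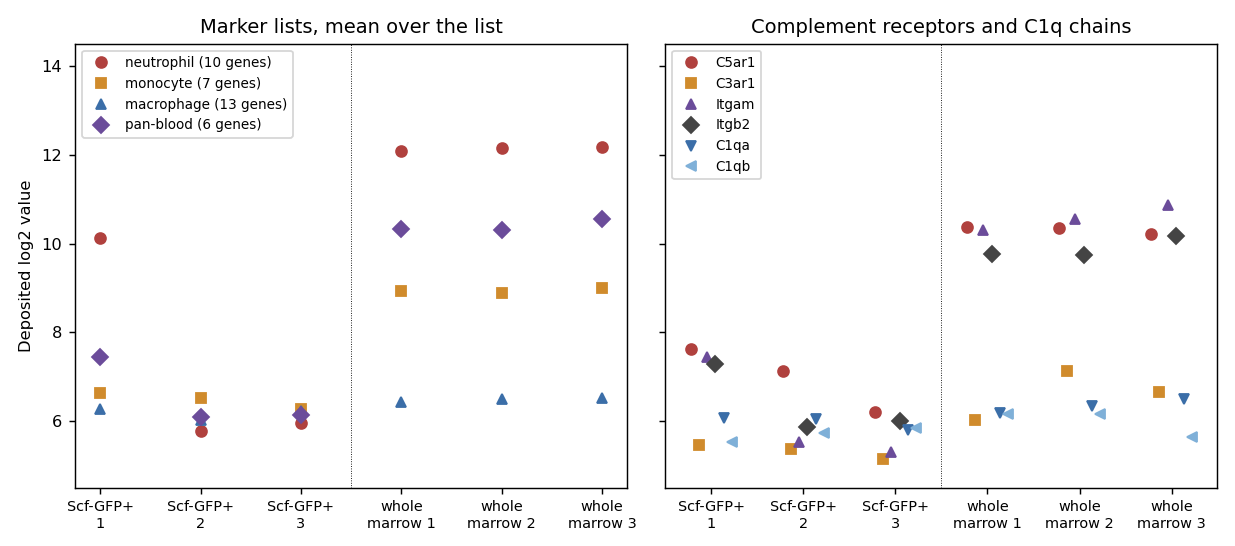
Left, the mean deposited log2 value over each list of blood cell markers on the 6 arrays; right, the log2 values of C5ar1, C3ar1, Itgam, Itgb2, C1qa and C1qb on the same arrays. The neutrophil list sits at 10.14 on Scf-GFP+ replicate 1 and at 5.96 or lower on replicates 2 and 3, Itgam is also highest of its group on replicate 1, and the C1q chains stay within 5.53 to 6.50 on all arrays.

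The 250 bases before the start of C1s1, the gene with the largest rise, and of C3ar1 and C5ar1, which both fell, are shown so that the letters upstream of genes that moved in opposite directions can be compared. Windows from RefSeq (GRCm38.p6) were found for 4 of the 8 genes. Motifs were searched on both strands, and capitals mark the matches: TGANTCA (AP-1), TATAAA (the core of a TATA box), GAGGAA (core of a PU.1 site) and TTCNNNGAA (STAT). The C1s1 window, 5′ to 3′, lies at chr6:124542360-124542609, that of C3ar1 at chr6:122856158-122856407 and that of C5ar1 at chr7:16259339-16259588, all on the minus strand.
C1s1: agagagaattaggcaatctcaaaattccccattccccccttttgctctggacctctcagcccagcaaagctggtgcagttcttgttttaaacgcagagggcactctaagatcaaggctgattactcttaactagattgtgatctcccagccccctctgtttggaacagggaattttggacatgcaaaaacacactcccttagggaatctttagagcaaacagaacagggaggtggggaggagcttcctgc
C3ar1: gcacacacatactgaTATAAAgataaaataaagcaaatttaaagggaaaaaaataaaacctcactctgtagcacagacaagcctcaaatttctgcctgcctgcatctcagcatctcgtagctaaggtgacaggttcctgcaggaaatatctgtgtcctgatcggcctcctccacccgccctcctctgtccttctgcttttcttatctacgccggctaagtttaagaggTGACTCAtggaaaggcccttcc
C5ar1: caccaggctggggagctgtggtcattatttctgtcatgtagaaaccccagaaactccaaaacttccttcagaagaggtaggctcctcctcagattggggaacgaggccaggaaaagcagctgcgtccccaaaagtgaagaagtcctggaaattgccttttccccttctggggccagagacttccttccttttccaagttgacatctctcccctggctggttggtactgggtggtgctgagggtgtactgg

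The C3ar1 window held the AP-1 letters at bases -22 to -16 from the start, which 6.75% of all 32851 windows hold, and TATAAA at -235 to -230, which 12.4% hold. GAGGAA occurred in the C1qb window at -30 to -25 and in 23.3% of all windows, and TTCNNNGAA in 7.02% of all windows and in none of those of the 4 genes. The C1s1 and C5ar1 windows held none of the 4 motifs, which says only that these letters are not in these windows. The motifs were chosen with the windows in view, and a match is a description, not a site.

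The rest of the pathway held both rises and falls. Of 47 other complement genes listed by role, 42 were measured. Called higher were 9 of the 42, where 9.01% of all genes were, and called lower 6 of the 42, where 7.89% were. Both counts are larger shares of the list than the shares over all genes. The genes called higher include C1s2 and C4a, close copies of C1s1 and C4b, and the list was chosen with earlier results known. Their median difference was -0.09, against -0.08 over all genes.

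Besides C1ra, C1s2 and C4a, the initiation genes held 1 further rise and 1 fall among 13 measured. Of all genes, 9.01% were called higher and 7.89% lower. Colec12, a scavenger receptor of the collectin family, measured 10.93, 10.72 and 10.64 in Scf-GFP+ cells and 5.79, 5.66 and 5.60 in whole marrow, a difference of 5.08 ± 0.12 (33.9-fold, limma adjusted p = 2.15e-06). Fcnb, ficolin B, a lectin made by myeloid cells, measured 6.40, 6.33 and 6.36 against 10.64, 10.56 and 9.98, a difference of -4.03 ± 0.19 (16.4-fold lower, limma adjusted p = 1.65e-05). Its Scf-GFP+ values spanned 0.07 units. The mannose-binding lectin protease genes Masp1 (-0.15 ± 0.12) and Masp2 (0.04 ± 0.12) were not called.

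Besides Cfb, 1 alternative pathway gene was measured, and it was called lower. This was Cfp, which encodes properdin, a stabiliser of the alternative convertase that myeloid cells release. It measured 8.08, 7.79 and 7.64 against 9.41, 9.01 and 9.05, a difference of -1.32 ± 0.17 (limma adjusted p = 0.00149). Of 7 terminal components, only C6, a protein of the membrane attack complex, was called, against 16.9% of all genes in either direction. It measured 8.98, 8.94 and 9.12 in Scf-GFP+ cells and 4.98, 5.03 and 4.89 in whole marrow, a difference of 4.05 ± 0.11 (16.5-fold, limma adjusted p = 2.47e-06). Those whole marrow values were under the lower quartile of all rows, so the fold is approximate. Hc, which encodes C5 in the mouse, differed by -0.26 ± 0.12, and C7, which follows C6 in the assembly of the complex, by -0.08 ± 0.13.

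Of 7 soluble regulators measured, 3 were called higher, against 9.01% of all genes, and 4 were not called. Serping1, the C1 inhibitor, which blocks C1r and C1s, measured 12.39, 12.49 and 12.57 in Scf-GFP+ cells and 7.16, 6.78 and 6.56 in whole marrow, a difference of 5.65 ± 0.17 (50.3-fold, limma adjusted p = 3.54e-06). Clu, clusterin, which holds back the membrane attack complex, measured 12.27, 12.51 and 12.66 against 6.39, 6.87 and 7.10, a difference of 5.69 ± 0.21 (51.7-fold, limma adjusted p = 7.33e-06). Vtn, vitronectin, another inhibitor of that complex, measured 8.64, 6.91 and 7.41 against 6.08, 5.87 and 5.84, with the highest value on Scf-GFP+ replicate 1. Its difference of 1.72 ± 0.41 was called (limma adjusted p = 0.0223), but leaving out whole marrow replicate 1, 2 or 3 ended the call (limma adjusted p = 0.0575, 0.0669 and 0.0735, from 0.00697 to 0.529 over all alternatives). Cfi, factor I, which cleaves C3b and C4b, differed by 0.83 ± 0.29 and was not called with all arrays (limma adjusted p = 0.0860). It was called without Scf-GFP+ replicate 3 (1.17, limma adjusted p = 0.00292, up to 1 over all alternatives).

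Of 8 membrane regulators, 1 was called in each direction and 6 were not called. The shares over all genes were 9.01% higher and 7.89% lower, and 1 gene of 8 is near them. Cd55, decay-accelerating factor, which takes apart the convertases, measured 5.87, 6.93 and 6.35 against 9.40, 8.67 and 9.03, a difference of -2.65 ± 0.30 (6.27-fold lower, limma adjusted p = 0.000953). Csmd1, a large membrane protein with complement control domains, measured 8.44, 8.44 and 8.39 against 5.95, 5.98 and 5.74, a difference of 2.53 ± 0.11 (5.78-fold, limma adjusted p = 1.32e-05). Cr1l, which encodes Crry, the rodent convertase inhibitor, measured 8.98, 9.59 and 8.98 against 9.12, 8.79 and 8.81, and its difference of 0.27 ± 0.20 was not called. Cd59a, an inhibitor of the membrane attack complex, was spread from 5.80 to 8.12 within Scf-GFP+ cells and differed by -0.75 ± 0.61, also not called. Cd46, a cofactor for the cleavage of C3b and C4b, measured 6.61, 6.75 and 5.46 against 5.11, 5.50 and 4.08, and the groups overlapped. Its difference of 1.37 ± 0.47 was not called (limma adjusted p = 0.0758). It was called without Scf-GFP+ replicate 3 (1.78, limma adjusted p = 0.0289) and with a replicate block (limma adjusted p = 0.00219), and over all alternatives the adjusted p ran from 0.00219 to 1.

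Among 6 other receptors, the 3 integrin chains of complement receptors 3 and 4 were called lower, against 7.89% of all genes. The other 3 genes were not called. Itgam, the CD11b chain, measured 7.45, 5.53 and 5.30 in Scf-GFP+ cells and 10.30, 10.55 and 10.87 in whole marrow, a difference of -4.48 ± 0.55 (limma adjusted p = 0.00133). Itgb2, the chain both receptors share, measured 7.29, 5.88 and 6.00 against 9.78, 9.75 and 10.17, a difference of -3.51 ± 0.38 (limma adjusted p = 0.000707). Both were highest of their group on Scf-GFP+ replicate 1, the array with high neutrophil markers, and without it they differed by -5.15 and -3.96. That moved the fold of Itgam from 22.3 to 35.6 (limma adjusted p = 4.52e-05, from 4.52e-05 to 0.00854 over all alternatives). With a term for the Xist split the fold of Itgam was 38.6 (limma adjusted p = 0.00513). Itgax, the CD11c chain, differed by -1.08 ± 0.18, and fell short of 2-fold without Scf-GFP+ replicate 2 or whole marrow replicate 2 (-0.97 and -0.98). Vsig4 and Cr2, receptors of tissue macrophages and of B cells for C3 fragments, gave differences of -0.24 ± 0.13 and -0.38 ± 0.13, neither called.

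**Figure D3:**
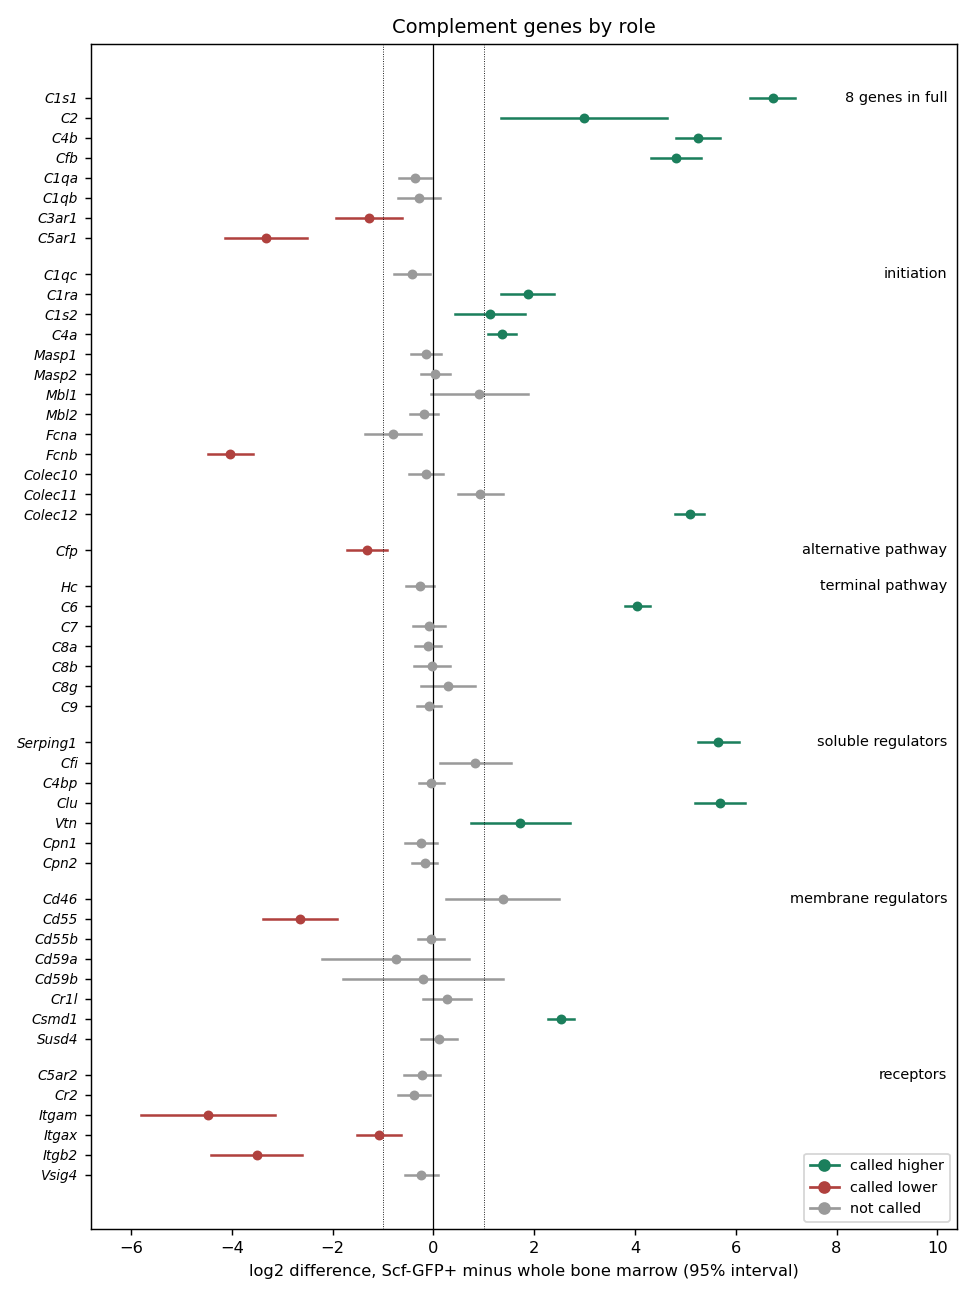
The log2 difference, Scf-GFP+ minus whole bone marrow (horizontal axis), with its 95% interval for the 8 genes described in full and 42 other complement genes by role; dotted lines mark a 2-fold difference. C1s1, C4b, Cfb, Colec12, C6, Serping1 and Clu lie between 4.05 and 6.73, while the called receptors lie between -4.48 and -1.08.

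The estimated changes of related genes that lie close together were unlike in size, which is a description only. The change of C1s1 exceeded that of C1s2 by 5.61 units, that of C4b exceeded that of C4a by 3.89, that of Cfb exceeded that of C2 by 1.82, and the change of C5ar1 minus that of C5ar2 was -3.10. For each pair, the within-array difference of the genes did not overlap between the groups. A two-sided exact permutation test of the 6 arrays gave p = 0.10 for each of the 4 pairs (adjusted p = 0.10), which is the smallest value that 3 arrays against 3 allow. None of the 4 comparisons can therefore pass the threshold, and the test adds nothing to the values. C1s1 and C1s2, like C4b and C4a, are close copies, so their rows may not measure the genes separately.

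**Figure D4:**
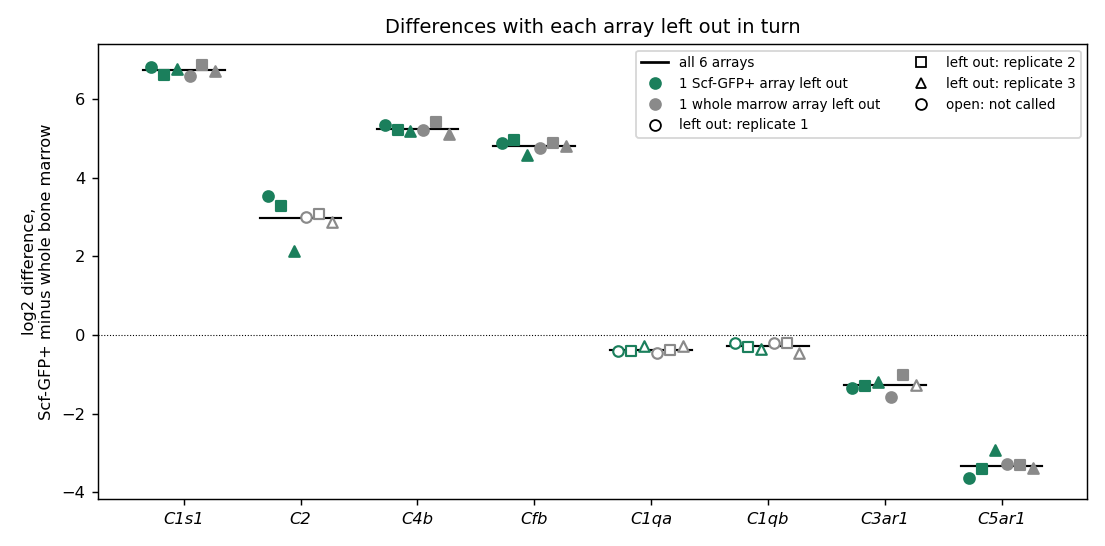
The log2 difference (vertical axis) of the 8 genes with all 6 arrays (line) and with each array left out in turn (symbols; open where the gene was not called). C1s1, C4b, Cfb and C5ar1 stay called in all 6 fits, C2 falls to 2.14 without Scf-GFP+ replicate 3 and loses the call when any whole marrow array is left out, and C3ar1 loses it without whole marrow replicate 3.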

How the data were processed

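Sorted mouse bone marrow cells were profiled on 6 single-colour Affymetrix Mouse Gene 1.0 ST arrays after NuGEN amplification, per the labels' protocols. Amplification from so few cells limits how exactly large differences are sized. The authors deposited log2 values. RMA, affy and limma stand in the submitters' processing notes, with no version or role, and the annotation build is not given in the sources used here. These values were used without further normalization. Of 28940 rows, 21789 list 1 gene symbol. Symbols were updated by Entrez identifier with a RefSeq table of GRCm38.p6, and the row with the highest mean stood for each of 19938 genes. The groups were compared with limma 3.58.1 (lmFit, eBayes) in R 4.3.3 with Benjamini-Hochberg adjustment over all genes, tested on simulated data. The alternatives, 18 in number, covered scaling, row choice, variance model, replicate block, call rule, sex-linked split and each array left out.

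The genes and lists were chosen with earlier results of these data known. Named genes are the 8 measured genes, all called genes of the other list, up to 2 uncalled genes per role and up to 4 markers per cell type; C1qc, C5ar2, Cd46 and the marker Slc40a1 were added after their values were seen. The planned search for genes with patterns most like C1qa was left out, because the 6 arrays form 2 separate clusters.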

Additional observations from a re-analysis of the deposited data

How the results depend on the processing

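With all alternatives, 4 of the 8 genes were called higher except that C2 lost the call in a test against a 2-fold change (adjusted p = 0.135) and with any whole marrow array left out, which left 3. The count called lower was 2, but 1 in the test against a 2-fold change and 1 with a term for the Xist split. That model compares only Scf-GFP+ replicate 3 with whole marrow. With single arrays left out, 3 to 4 genes were called higher and 1 to 2 lower. Of the other complement genes, 6 to 10 were called higher and 4 to 7 lower over all alternatives. No difference of the 8 genes changed sign under any alternative. Replicate numbers are shared by the groups, and the deviations of same-numbered arrays correlated by -0.06, -0.02 and 0.07. Pairs with unlike numbers ran from -0.09 to 0.11. With 3 arrays a group, such values cannot show whether same-numbered arrays shared a batch. With a replicate block, 4 genes were called higher and 2 lower, as without it; 9 and 6 of the other complement genes were called, with C1s2 losing its call (adjusted p = 0.0640) and Cd46 gaining one (0.00219). Without a minimum fold, 2758 genes were called higher and 2635 lower over all genes, and in the test against a 2-fold change 792 and 792. C1qb was not tested without the dimmest 30% of genes, because it is among them. The same held for C1s2, Cfi and Cd46, and 25 of the 42 other complement genes remained in that fit. The deposited values carry no background signal, so how far background limits the small differences of the C1q chains was not tested.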
